A study of Mus musculus with 9 samples.

Results

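A group of 10 genes of antioxidant defence and of the removal of reactive aldehydes and foreign compounds was followed in the atherosclerotic mouse aorta, namely Nfe2l2, Gclc, Gclm, Txnrd1, Srxn1, Nqo1, Hmox1, Aldh3a1, Cyp1b1 and Tiparp. The members were chosen by gene symbol, with results of these arrays already known, among them the lower signal of Aldh3a1 with HDAd-gE3 than with HDAd-0. All probe sets that the platform annotation assigns to 1 of these symbols alone were taken, which gave 22 probe sets for the 10 genes, out of 45037 probe sets (18193 named genes) on the array. Because the choice was made with differences between the groups in view, the differences below are a description, and no count of members is read as evidence about them. Where a gene has several probe sets they are numbered by mean signal, with set 1 the brightest. The array's names mark some as matching several transcripts (Txnrd1 sets 1 and 2, and set 1 of Gclc, Srxn1 and Tiparp) and Txnrd1 set 3 as able to bind related sequences.

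All mice were female APOE-/- animals on a C57BL/6 background, which lack apolipoprotein E and develop atherosclerosis. They were bought at 8 weeks of age and fed for 30 weeks a diet with 0.2% cholesterol and 10% coconut oil. Group HDAd-gE3 then received 1 tail vein injection of a helper-dependent adenovirus that expresses human apolipoprotein E3, group HDAd-0 the same kind of vector with no transgene, and group PBS the saline vehicle, and aortas from sinus to arch were taken 10 days later. Each of the 9 arrays, 3 per group, measured RNA pooled from 3 aortas. Both vectors were given at 1 dose, the mouse Apoe gene was absent from all groups, and the promoter of the transgene and the cells that took up the vectors are not given in the sources used here.

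The transcription factor NRF2, made from Nfe2l2, is bound by KEAP1 and degraded until oxidants or electrophiles such as oxidised lipids modify KEAP1. NRF2 then binds antioxidant response elements together with small MAF proteins and raises the genes of glutathione synthesis (Gclc, Gclm), of thioredoxin (Txnrd1, Srxn1), of quinone reduction (Nqo1) and of haem breakdown (Hmox1). The aryl hydrocarbon receptor, a ligand-activated factor, binds xenobiotic response elements with its partner ARNT and raises Cyp1b1, Tiparp, Nqo1 and Aldh3a1. In the artery wall both pathways act in endothelium, smooth muscle and macrophages, and laminar flow and oxidised lipoproteins are known to engage NRF2.

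Signals are log2 values. Array medians lay between 6.67 and 6.77, and the lowest correlation of any 2 arrays was 0.991. Precision is limited by having 3 arrays in a group, and p-values measure the spread between pools of aortas. Smooth muscle, endothelial and macrophage marker lists averaged 12.51 to 12.71, 10.08 to 10.56 and 11.65 to 11.86 on single arrays, so the defining markers of the labelled tissue were present. HDAd-0 replicate 4 stood apart in RNA quality: its 3' minus 5' signal of the Actb and Gapdh control probe sets was 1.08, against 0.673 to 0.958 on the other arrays. By group this signal was 0.673 to 0.809 with HDAd-gE3, 0.760 to 1.08 with HDAd-0 and 0.785 to 0.917 with PBS. The groups overlapped, but the 2 lowest arrays were of HDAd-gE3 and the 2 highest of HDAd-0, so RNA quality was partly aligned with the vector contrast. The neutrophil list averaged 9.75 to 10.77 with HDAd-gE3, 8.88 to 9.47 with HDAd-0 and 9.07 to 9.40 with PBS. HDAd-gE3 thus overlapped neither other group, and its replicate 4 was the highest. HDAd-0 replicate 5 had the highest hepatocyte list mean (10.50). Smooth muscle markers were lower with HDAd-0 (12.51 to 12.59) than with PBS (12.66 to 12.68) and HDAd-gE3 (12.68 to 12.71), with no overlap. Heart muscle markers averaged 11.41 to 12.12 on the HDAd-0 arrays, 11.96 to 13.06 with HDAd-gE3 and 12.50 to 12.62 with PBS.

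In mean, Aldh3a1 and Cyp1b1 set 2 read lower with HDAd-gE3 than in the other groups, whereas Txnrd1, Gclm and Tiparp each had a probe set that read higher with both vectors than with PBS. For Nfe2l2, Nqo1 and Hmox1 the arrays of all groups overlapped, and the group means lay within 0.11 of each other on the brightest probe set of each. No member passed an adjusted p of 0.05 in any of the 3 comparisons (limma over 45037 probe sets, Benjamini-Hochberg), so every difference below is a value that did not pass. Tissue RNA was measured in bulk, so fewer cells of a type and less RNA per cell cannot be told apart.

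**Figure D1:**
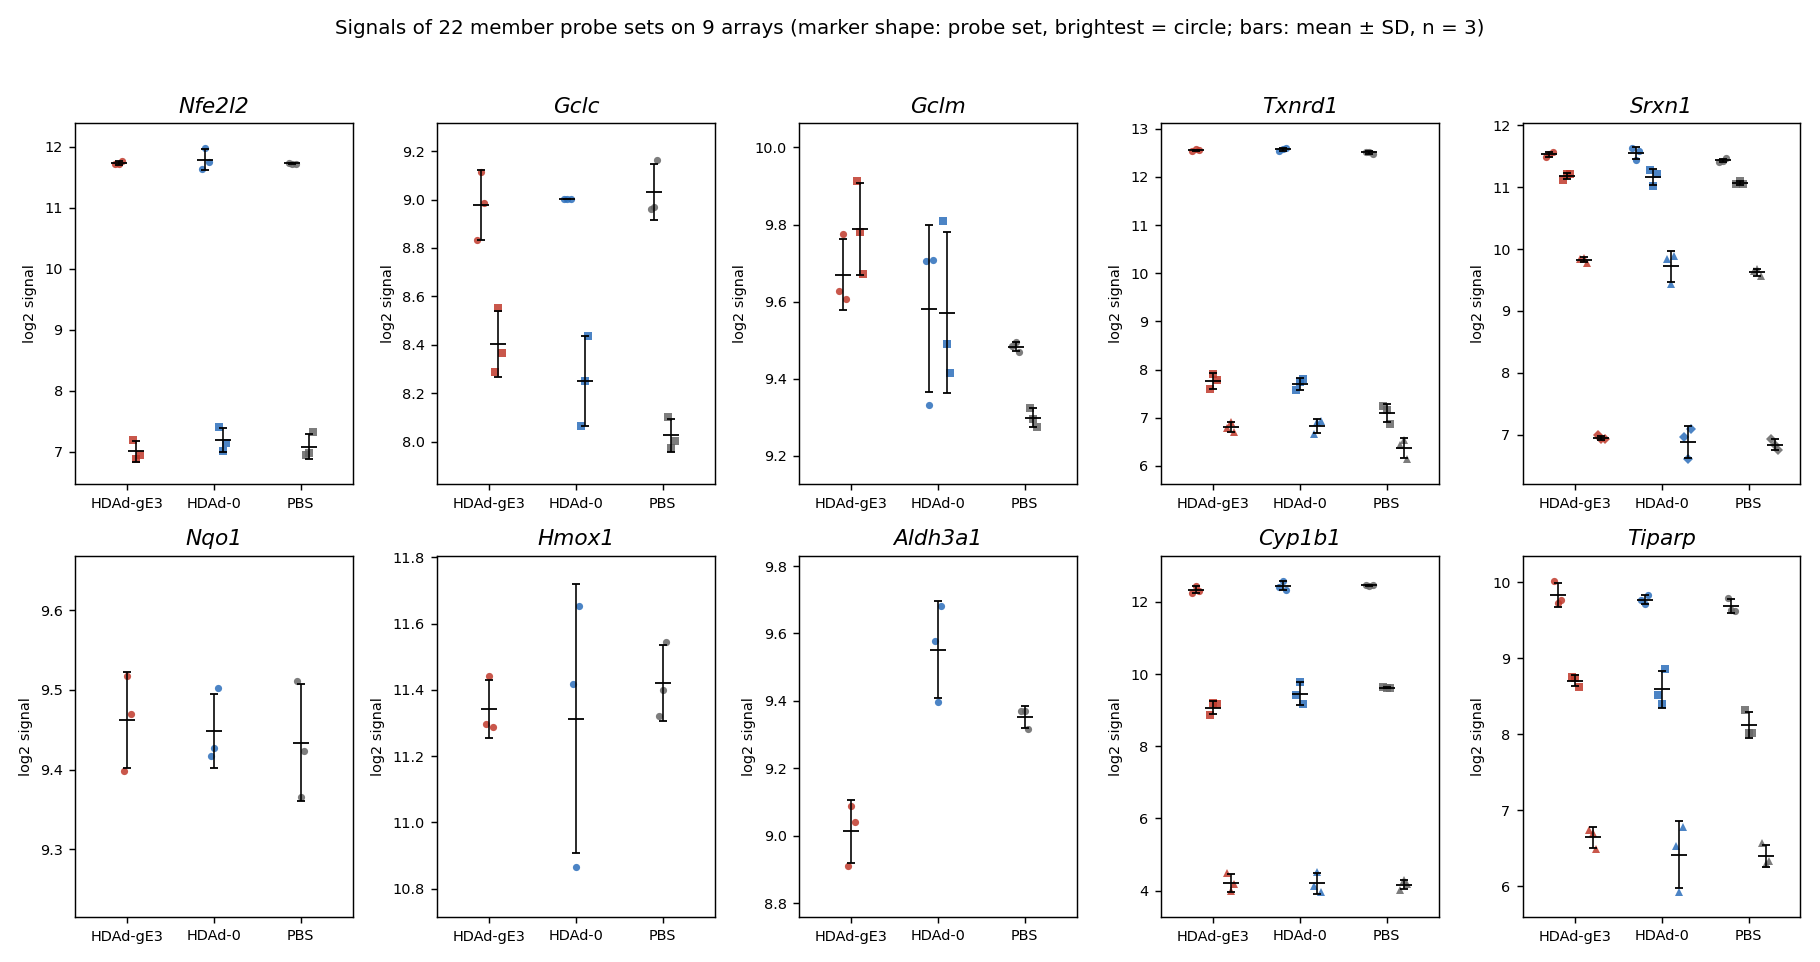
Log2 signal (vertical axis, a separate range for each gene) of the 22 probe sets in the 3 groups. Points are arrays, marker shapes are probe sets of a gene (circle for the brightest), and bars are means with SD (n = 3). Aldh3a1 lies lowest with HDAd-gE3, while the dimmer probe sets of Txnrd1 and the middle one of Tiparp lie lowest with PBS.

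Aldh3a1 encodes a dehydrogenase that oxidises aromatic and medium-chain aldehydes, among them products of lipid peroxidation, and it is best known from the cornea and the stomach. Its single probe set read 8.91, 9.09 and 9.04 with HDAd-gE3. With HDAd-0 it read 9.58, 9.40 and 9.68. With PBS it read 9.37, 9.37 and 9.32. The 3 groups did not overlap on any array and kept the order HDAd-0, PBS, HDAd-gE3. The mean with HDAd-gE3 was 1.45-fold lower than with HDAd-0, a difference of -0.54 ± 0.087 (SE, n = 3 per group), which is given with no test because this difference was known when the gene was chosen. Against PBS it was -0.34 ± 0.087 with HDAd-gE3 and 0.20 ± 0.087 with HDAd-0 (limma, adjusted p = 0.245 and 0.403). The difference between the vectors was -0.62 without HDAd-0 replicate 4.

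Marker lists of 3 of the 11 cell types had means in the same order as Aldh3a1. The mean of 15 macrophage genes was 11.79 to 11.86 with HDAd-0, 11.71 to 11.76 with PBS and 11.65 to 11.66 with HDAd-gE3, with no overlap. The mean of 9 markers of stratified and airway epithelium was 6.13 to 6.25, 6.11 to 6.22 and 5.91 to 6.12 in the same order of groups, with overlap. Its brightest member, Scgb1a1, went the other way, at 10.42, 10.96 and 11.00. The corneal keratin Krt12 was dim, at 3.57, 3.66 and 3.35, and was highest with PBS. Of the others, Krt5, Krt14, Epcam and Cdh1 kept the order of Aldh3a1 in mean, and Krt4, Krt13 and Trp63 did not. The mean of 8 skeletal muscle genes was 6.47 to 8.23 with HDAd-0, 6.50 to 6.76 with PBS and 5.81 to 6.46 with HDAd-gE3, with overlap between HDAd-0 and PBS. Their part in the Aldh3a1 values was not tested.

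Over the 9 arrays, the probe sets whose profile lay closest to that of Aldh3a1 were those of Selp, Shisa9, Spon1, C2 and Styk1. Likeness was the root-mean-square difference of log2 signals after each was centred on its own mean, over 15067 probe sets with 1 named gene and a range of at least 0.5. It was 0.0742 for Selp, which encodes P-selectin, and 0.0783 for Shisa9. It was 0.0914 for Spon1 (spondin 1), 0.0949 for C2 (complement component 2) and 0.0951 for Styk1, against a median of 0.315. The Selp signals were 11.92, 12.11 and 12.03 in the HDAd-gE3 group, 12.39, 12.33 and 12.49 in HDAd-0, and 12.29, 12.27 and 12.23 in PBS. These probe sets were picked for the likeness, and all 6 profiles come from the same 9 pools.

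**Figure D2:**
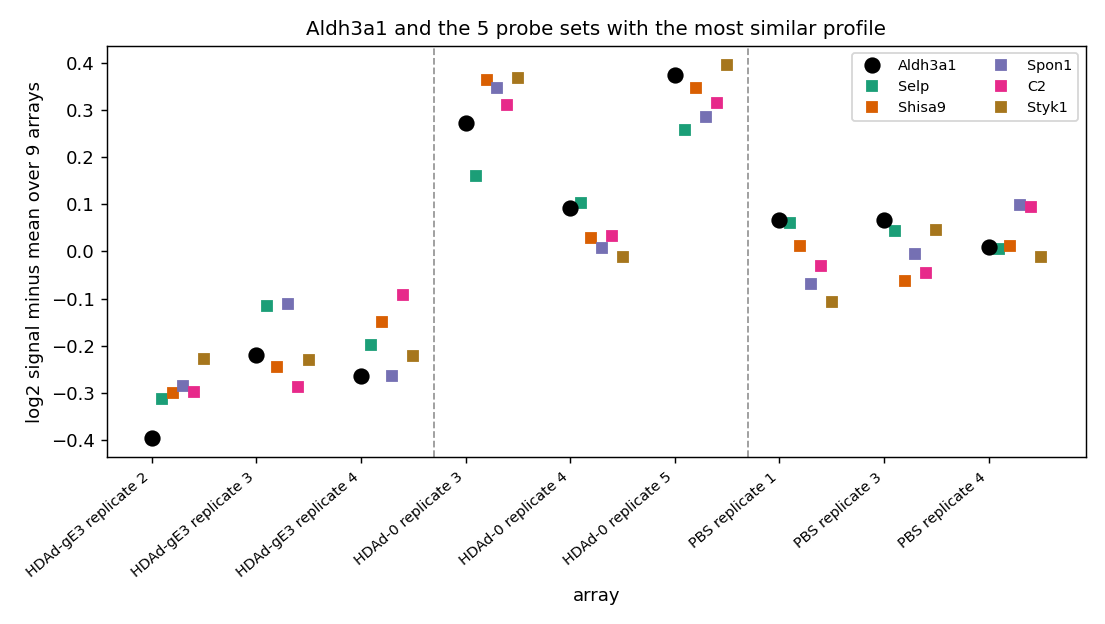
Log2 signal minus the mean over 9 arrays (vertical axis) for Aldh3a1 and the 5 probe sets with the closest profile, on each array (horizontal axis, groups parted by dashed lines). For Aldh3a1 the 3 HDAd-0 arrays lie highest, the PBS arrays between and the HDAd-gE3 arrays lowest.

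Cyp1b1, a cytochrome P450 that oxidises oestrogens, fatty acids and polycyclic hydrocarbons and is expressed in vascular smooth muscle and endothelium, had 3 probe sets. On set 2 the signals were 8.86, 9.19 and 9.16 with HDAd-gE3. They were 9.42, 9.79 and 9.17 with HDAd-0. They were 9.64, 9.63 and 9.60 with PBS. Each HDAd-gE3 array was lower than each PBS array, whereas HDAd-0 overlapped PBS. HDAd-gE3 read 1.47-fold lower than PBS, at -0.55 ± 0.15 (limma, adjusted p = 0.274), and -0.39 ± 0.15 from HDAd-0 (adjusted p = 0.354). The highest HDAd-0 array, at 9.79, was replicate 4. The difference from HDAd-0 had an unadjusted p under 0.05 with all arrays (limma). It did not without HDAd-0 replicate 4, with array weights or with the 3' minus 5' covariate, among other settings. Set 1 averaged 12.33, 12.44 and 12.46 in the order HDAd-gE3, HDAd-0, PBS and differed by -0.13 ± 0.084 from PBS, with no overlap. Set 3 was dim, with group means of 4.16 to 4.21, and showed no such order.

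Tiparp encodes an ADP-ribosyltransferase that is raised by the aryl hydrocarbon receptor and represses it in turn. On set 2 the arrays read 8.76, 8.74 and 8.63 with HDAd-gE3. They read 8.52, 8.40 and 8.87 with HDAd-0. They read 8.32, 8.02 and 8.02 with PBS. Every vector array lay above every PBS array, and the vector groups overlapped. The signal was higher in mean with HDAd-gE3 than with PBS (0.59 ± 0.13; limma, adjusted p = 0.197) and with HDAd-0 (0.47 ± 0.13, 1.39-fold; adjusted p = 0.243). Set 1 gave 0.16 ± 0.093 and 0.088 ± 0.093, and set 3 0.24 ± 0.20 and 0.017 ± 0.20, with overlapping arrays on both. Cyp1b1 and Tiparp, both targets of the aryl hydrocarbon receptor, thus had set 2 means on opposite sides of PBS with HDAd-gE3.

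Txnrd1 encodes cytosolic thioredoxin reductase, the selenoenzyme that keeps thioredoxin reduced. Its 3 probe sets gave differences of unequal size. On set 2 the arrays read 7.60, 7.91 and 7.78 with HDAd-gE3. They read 7.57, 7.74 and 7.81 with HDAd-0. They read 7.25, 7.16 and 6.88 with PBS. All 6 vector arrays lay above all PBS arrays. The signal was 1.59-fold higher with HDAd-gE3 than with PBS (0.67 ± 0.12) and 1.53-fold higher with HDAd-0 (0.61 ± 0.12), with limma adjusted p of 0.138 and 0.16. With array weights the HDAd-gE3 value was 1 of 279 probe sets that passed (limma, adjusted p = 0.0378; 0.0378 to 0.488 was the range of the smallest member value over all alternatives). Set 3 showed the same split, at 0.44 ± 0.12 and 0.46 ± 0.12. It was dim, with a mean of 6.67 over all arrays, near the array medians of 6.67 to 6.77. Set 2 averaged 7.52 and set 1 12.54. Set 1 read 12.48 to 12.59 on all arrays, and although vector and PBS arrays did not overlap there, the differences were only 0.046 ± 0.057 and 0.064 ± 0.057. Between the vector groups no Txnrd1 probe set differed by more than 0.053 in size.

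Gclm and Gclc encode the modifier and the catalytic subunit of glutamate-cysteine ligase, the rate-limiting enzyme of glutathione synthesis. For Gclm, set 2 read 9.91, 9.78 and 9.67 with HDAd-gE3. With HDAd-0 it read 9.81, 9.49 and 9.42. With PBS it read 9.32, 9.30 and 9.28. All vector arrays lay above all PBS arrays, and the vector groups overlapped. The HDAd-gE3 mean was 1.40-fold higher than PBS (0.49 ± 0.11; limma, adjusted p = 0.197) and the HDAd-0 mean 1.21-fold higher (0.27 ± 0.11; adjusted p = 0.368). Gclm set 1 gave 0.19 ± 0.11 and 0.098 ± 0.11, with HDAd-0 replicate 4 (9.33) below all PBS arrays. With the 3' minus 5' signal as a covariate, the first of these was 0.065.

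The Gclc probe sets parted. On set 2 the arrays read 8.29, 8.55 and 8.37 with HDAd-gE3, 8.07, 8.25 and 8.44 with HDAd-0, and 8.10, 7.97 and 8.00 with PBS. HDAd-gE3 lay above PBS on every array, 1.30-fold higher in mean (0.38 ± 0.11; limma, adjusted p = 0.296), and HDAd-0 overlapped PBS. Set 1 differed by -0.054 ± 0.09 between HDAd-gE3 and PBS, with means of 8.98 and 9.03. Its 3 HDAd-0 arrays held 1 and the same deposited value, which occurred for 0.455% of probe sets, so the SD of 0.0 there does not measure the spread of the pools.

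Red cell genes also had higher means with both vectors. The mean of the 3 measured erythroid markers of 6 was 8.05 to 8.29 with PBS, 8.68 to 9.05 with HDAd-0 and 8.98 to 9.26 with HDAd-gE3, so that vector and PBS arrays did not overlap. Slc4a1, the red cell anion exchanger, averaged 9.25 with PBS, 10.63 with HDAd-0 and 11.51 with HDAd-gE3. Alas2, the erythroid enzyme that starts haem synthesis, averaged 11.52, 12.26 and 12.56, while the Hba-a1 probe set was dim at 3.63, 3.55 and 3.39. Endothelial markers averaged 10.08 to 10.16 with PBS, 10.38 to 10.56 with HDAd-0 and 10.19 to 10.35 with HDAd-gE3. Hepatocyte markers averaged 8.59 to 8.98 with PBS, 9.29 to 10.50 with HDAd-0 and 8.80 to 9.51 with HDAd-gE3, which overlapped PBS, and fibroblast markers averaged 12.98 to 13.14 over all arrays, with overlap between all groups. The part of these cells in the Txnrd1, Gclm, Gclc and Tiparp values was not tested.

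The bases before annotated start sites of Gclm, Txnrd1, Tiparp and Cyp1b1 are shown because antioxidant and xenobiotic response elements lie in promoters. Each of these genes had a probe set on which HDAd-gE3 and PBS arrays did not overlap, but none passed the adjusted threshold in the comparisons above. The same holds for Srxn1, whose promoter was searched but is not printed and held no antioxidant match. Of the Txnrd1 starts only the second is printed, the start with an antioxidant match. RefSeq promoters of GRCm38.p6 were at hand for 7 of the 10 genes (9 start sites, of which Txnrd1 has 3), and the 250 bases before each start site were searched on both strands. Capitals mark the letters TGACNNNGC, a core of the antioxidant response element that reads GCNNNGTCA on the opposite strand, and GCGTG, the xenobiotic response element core, which reads CACGC there. The windows lie at chr3:122245307-122245556 (plus strand) for Gclm, chr10:82858956-82859205 (plus strand) for the second Txnrd1 start, chr3:65528197-65528446 (plus strand) for Tiparp and chr17:79715062-79715311 (minus strand) for Cyp1b1.
Gclm: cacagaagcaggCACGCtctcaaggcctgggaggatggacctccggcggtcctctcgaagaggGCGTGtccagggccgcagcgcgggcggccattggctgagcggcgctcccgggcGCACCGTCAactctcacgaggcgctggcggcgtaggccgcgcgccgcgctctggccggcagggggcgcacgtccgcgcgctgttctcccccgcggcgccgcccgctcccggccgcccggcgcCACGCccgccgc
Txnrd1: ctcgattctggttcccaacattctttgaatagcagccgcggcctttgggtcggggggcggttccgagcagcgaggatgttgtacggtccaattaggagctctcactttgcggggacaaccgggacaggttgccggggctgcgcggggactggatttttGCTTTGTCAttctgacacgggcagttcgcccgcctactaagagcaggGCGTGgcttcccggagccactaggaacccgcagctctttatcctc
Tiparp: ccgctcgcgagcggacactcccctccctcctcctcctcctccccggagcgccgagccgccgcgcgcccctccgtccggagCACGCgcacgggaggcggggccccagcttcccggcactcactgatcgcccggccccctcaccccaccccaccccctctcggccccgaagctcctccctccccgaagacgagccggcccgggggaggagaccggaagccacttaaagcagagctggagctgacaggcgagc
Cyp1b1: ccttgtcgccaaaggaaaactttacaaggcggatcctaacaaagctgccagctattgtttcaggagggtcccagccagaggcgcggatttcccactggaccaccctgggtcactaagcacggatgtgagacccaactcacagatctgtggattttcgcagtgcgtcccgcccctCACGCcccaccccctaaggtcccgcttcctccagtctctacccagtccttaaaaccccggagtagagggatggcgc

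The antioxidant core was found before 3 of the 9 start sites, against 10.2% of all 32851 promoters. In Gclm it reads GCACCGTCA from 134 to 126 bases before the start, and at the second start of Txnrd1 GCTTTGTCA from 92 to 84 bases before it. The remaining match, TGACTCCGC in Nfe2l2, begins 240 bases before the start. The xenobiotic core was found before 7 of the 9 start sites, against 28.2% of all promoters, with 3 matches in Gclm, 1 at each Txnrd1 start and 1 each in Srxn1, Cyp1b1 and Tiparp. Nqo1 held neither in this window. None of the marked matches overlap one another, and a match of letters is no measure of binding. Counted by gene, 5 of the 7 held the xenobiotic core. The members include known targets of both pathways, and Txnrd1 gives 3 of the 9 start sites, so nothing is read from these shares. Aldh3a1, Gclc and Hmox1 had no entry.

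Srxn1 encodes sulfiredoxin, which restores peroxiredoxins that peroxide has over-oxidised. Its 4 probe sets all had a higher mean with both vectors than with PBS, by 0.097 to 0.20 with HDAd-gE3 and by 0.049 to 0.12 with HDAd-0. Set 1 read 11.48, 11.53 and 11.57 with HDAd-gE3, 11.63, 11.44 and 11.59 with HDAd-0, and 11.41, 11.42 and 11.46 with PBS. HDAd-gE3 did not overlap PBS on 3 of the 4 probe sets, and HDAd-0 overlapped it on all, with HDAd-0 replicate 4 the lowest array of its group on each. The smallest adjusted p of the gene was 0.516, for HDAd-0 against PBS on set 1 (0.12 ± 0.07; limma).

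Nfe2l2, the gene of NRF2 itself, read 11.71, 11.71 and 11.77 with HDAd-gE3, 11.64, 11.97 and 11.75 with HDAd-0, and 11.74, 11.72 and 11.72 with PBS on set 1. The groups overlapped, and the means differed by at most 0.062 with an SE of 0.087. Set 2 ran from 6.88 to 7.41 over all arrays, with overlap between all groups. NRF2 is regulated mainly as a protein, which these arrays do not measure. Nqo1, the quinone reductase, read 9.40, 9.52 and 9.47 with HDAd-gE3, 9.42, 9.43 and 9.50 with HDAd-0, and 9.51, 9.37 and 9.42 with PBS. Its 3 differences were 0.013 to 0.028, each below its SE of 0.069. Hmox1, the inducible haem oxygenase of macrophages and stressed vessels, read 11.30, 11.44 and 11.29 with HDAd-gE3, 11.42, 10.86 and 11.65 with HDAd-0, and 11.32, 11.40 and 11.54 with PBS. The HDAd-0 arrays spread around both other groups (SD 0.406), and their difference from PBS was -0.11 ± 0.18 with all arrays and 0.12 without HDAd-0 replicate 4.

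**Figure D3:**
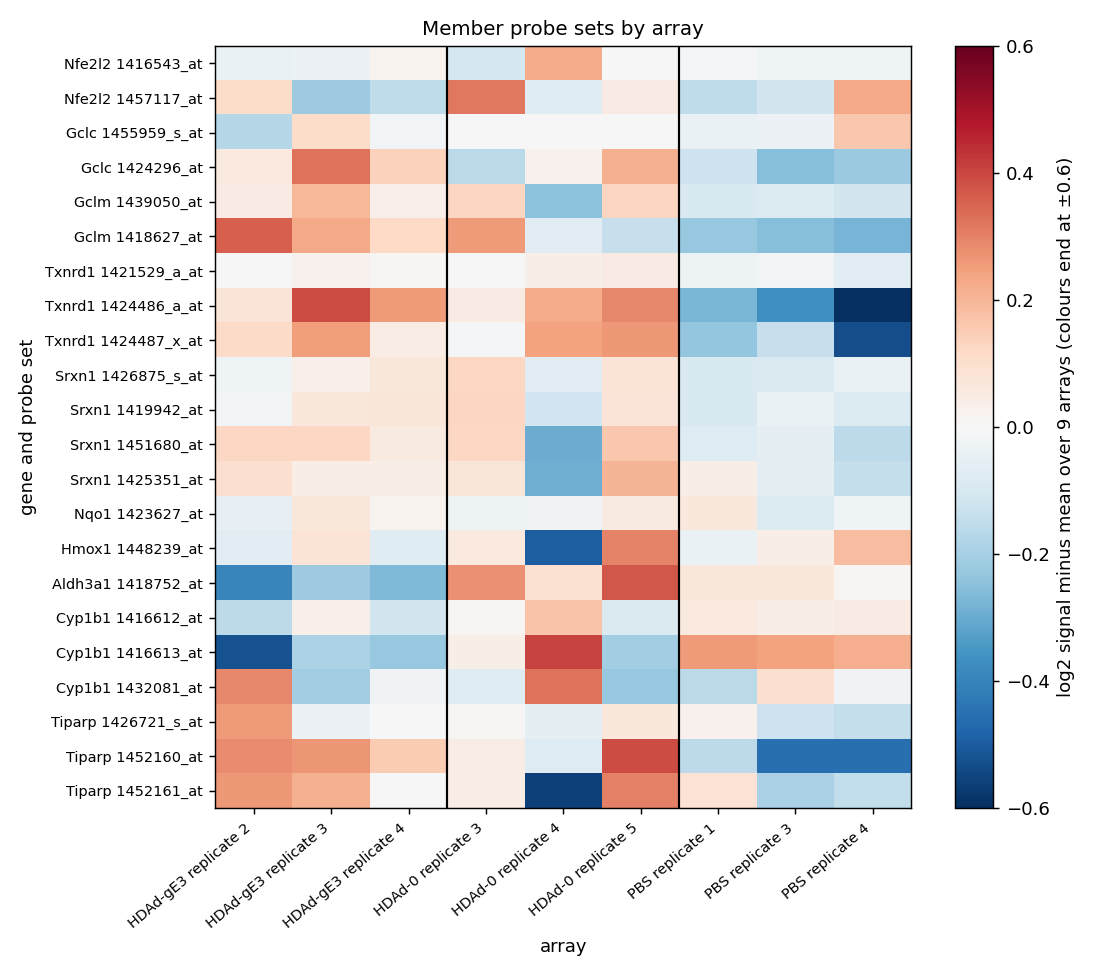
Log2 signal minus the mean over 9 arrays (colour, ending at ±0.6) for the 22 probe sets (rows, by gene and then from bright to dim) on each array (columns, groups parted by lines). PBS arrays are low for Txnrd1 set 2 and Tiparp set 2, HDAd-gE3 arrays for Aldh3a1 and Cyp1b1 set 2, and HDAd-0 replicate 4 is low for Hmox1.

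The arrays of the HDAd-0 group differed among themselves over the members. HDAd-0 replicate 4 was the lowest of its group on 12 of 22 probe sets and HDAd-0 replicate 5 the highest on 14, with median deviations from the group mean of -0.071 and 0.056. In the PBS group these medians ran from -0.023 to 0.018, and in HDAd-gE3 from -0.034 to 0.043. All probe sets of Hmox1, Srxn1, Tiparp and Aldh3a1 were lowest of the group on HDAd-0 replicate 4, while all 3 of Cyp1b1 were highest there.

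For HDAd-gE3 against HDAd-0, which sets the transgene against the bare vector, 0 of 22 member probe sets passed the adjusted threshold, as did 0.0% of all probe sets. At an unadjusted p under 0.05, 0 members were higher (6.08% of all probe sets) and 2 lower (6.76% of all), those of Aldh3a1 and Cyp1b1 set 2. Arrays did not overlap for 0 members on the higher side (6.3% of all) and for 1, Aldh3a1, on the lower (9.56% of all). The Aldh3a1 difference was known when the gene was chosen, so its place in both counts is no test. The median difference of the 22 was 0.012 and that of all probe sets -0.017.

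For HDAd-0 against PBS, which sets the bare vector against the saline vehicle, 0 of 22 passed, against 0.00888% of all probe sets. At an unadjusted p under 0.05, 5 were higher (6.59% of all), from Gclm, Txnrd1, Aldh3a1 and Tiparp, and 0 lower (5.75% of all). Arrays did not overlap for 6 on the higher side (9.43% of all) and 0 on the lower (7.46% of all), and the medians were 0.09 for the 22 and 0.01 for all.

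For HDAd-gE3 against PBS, 0 of 22 passed, against 0.00222% of all. At an unadjusted p under 0.05, 5 were higher (5.54% of all), from Gclc, Gclm, Txnrd1 and Tiparp, and 2 lower (5.47% of all), from Aldh3a1 and Cyp1b1. Arrays did not overlap for 10 on the higher side (10.6% of all) and 3 on the lower (10.3% of all). The medians were 0.10 and -0.0047. Probe sets of a gene share its RNA, the comparisons share arrays, and the members were chosen with these contrasts known, so nothing is read from these counts.

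**Figure D4:**
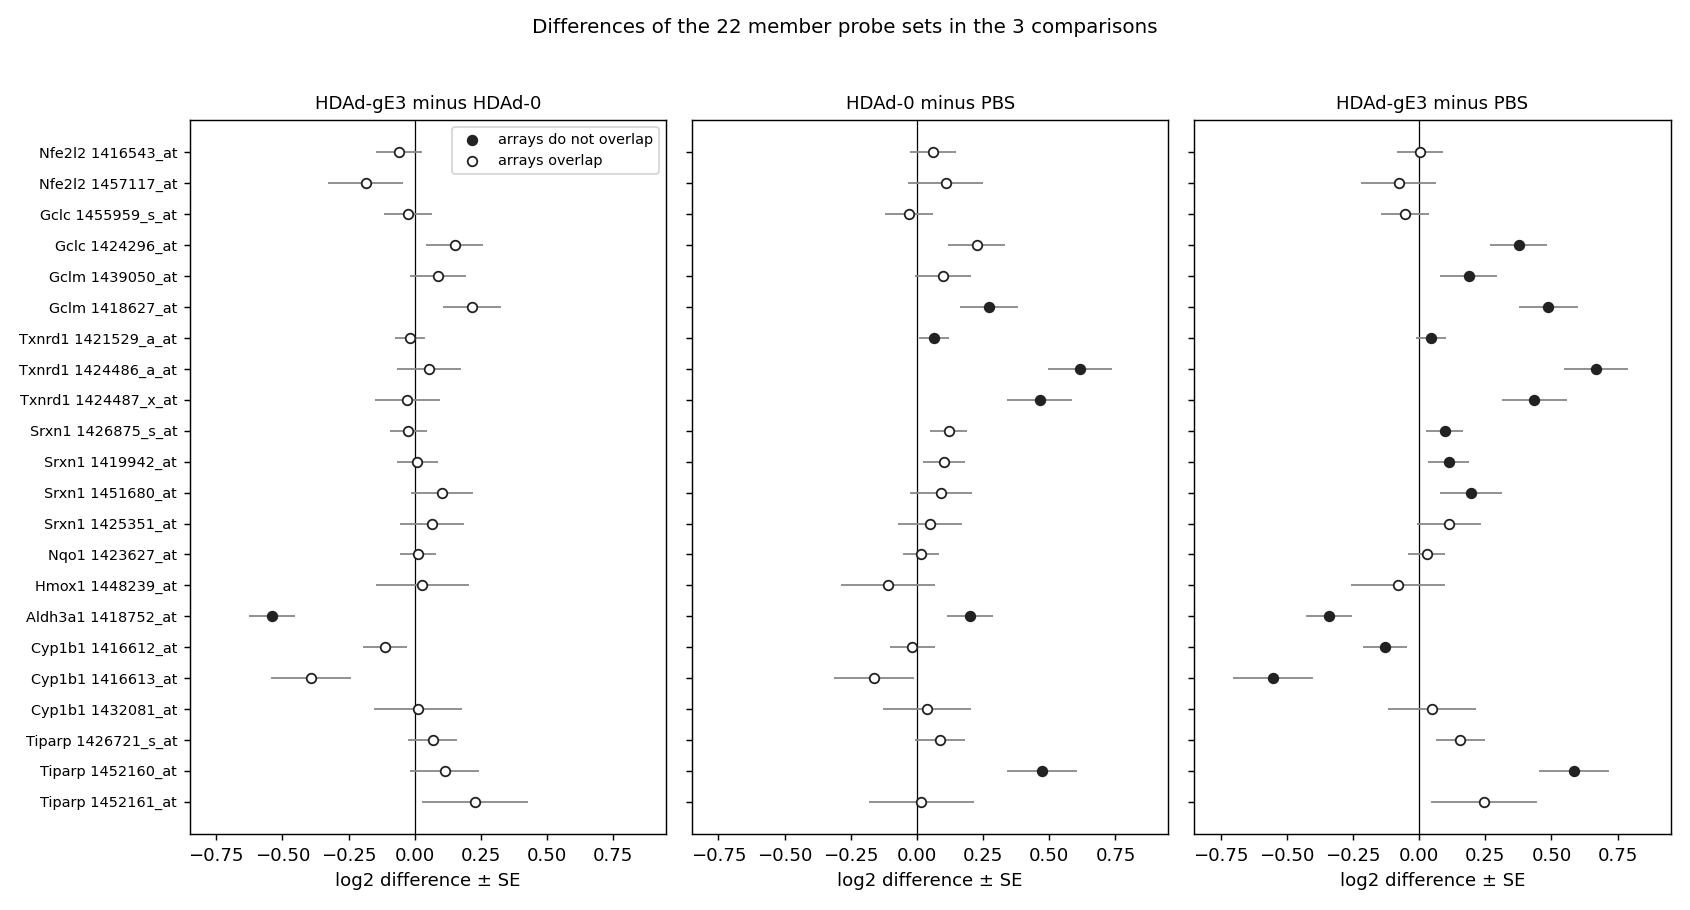
Log2 difference with SE (horizontal axis) of each of the 22 probe sets (rows) in the 3 comparisons (panels); filled points mark groups whose arrays do not overlap. Txnrd1 set 2 differs from PBS by 0.67 with HDAd-gE3 and by 0.61 with HDAd-0, and Aldh3a1 is the only filled point between the vector groups.

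Related genes were taken from 9 lists of 127 genes, of which 115 were read on a probe set of 1 gene. The 115 include Trh, a hormone gene matched into the haem and iron list, on a dim probe set (group means 3.61 to 3.81). None of its differences had an unadjusted p under 0.05 (limma), so it enters the shares below but no count of higher or lower genes. None of the 115 passed in any comparison (limma over all probe sets). By unadjusted p (threshold 0.05), HDAd-gE3 against HDAd-0 had 2 higher (1.74%, against 6.08% of all probe sets) and 10 lower genes (8.7%, against 6.76%). In HDAd-0 against PBS 14 were higher (12.2%, against 6.59%) and 1 lower (0.87%, against 5.75%). In HDAd-gE3 against PBS 5 were higher (4.35%, against 5.54%) and 8 lower (6.96%, against 5.47%).

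Among 26 genes of aldehyde and ketone metabolism, the same threshold gave 0 higher and 5 lower for HDAd-gE3 against HDAd-0, 3 higher and 0 lower for HDAd-0 against PBS, and 0 higher and 2 lower for HDAd-gE3 against PBS, beside the shares of all probe sets just given. Aldh1a2, which makes retinoic acid, read 8.43, 8.45 and 8.49 with HDAd-gE3, 8.81, 8.84 and 9.06 with HDAd-0, and 8.35, 8.37 and 8.28 with PBS. The HDAd-0 arrays lay above all others (0.57 ± 0.079 against PBS and -0.45 ± 0.079 for HDAd-gE3 against HDAd-0; limma, adjusted p = 0.0821 and 0.173). Aldh1a1, a retinaldehyde and lipid aldehyde dehydrogenase, read 10.96, 10.76 and 10.65 with HDAd-gE3, 11.16, 10.99 and 11.07 with HDAd-0, and 11.15, 11.08 and 11.22 with PBS. Here, as for Aldh3a1, HDAd-gE3 lay below both other groups (-0.28 ± 0.093 and -0.36 ± 0.093; adjusted p = 0.303 and 0.252), but HDAd-0 did not lie above PBS.

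Of 9 genes of the aryl hydrocarbon receptor pathway, HDAd-0 against PBS had 3 higher and 1 lower by that threshold (6.59% and 5.75% of all probe sets). HDAd-gE3 against HDAd-0 had 0 in either direction (6.08% and 6.76% of all), and HDAd-gE3 against PBS had 0 higher and 1 lower (5.54% and 5.47% of all). Cyp1a2, a liver cytochrome, was dim and averaged 3.88 (HDAd-gE3), 4.17 (HDAd-0) and 3.80 (PBS). Cyp2s1, an extrahepatic cytochrome, averaged 7.28, 7.72 and 7.10 in that order with SDs of 0.27 to 0.441. The 1 lower gene in HDAd-0 against PBS was Cyp1a1, which averaged 7.48, 6.98 and 7.66 in that order. Its difference there was -0.69 ± 0.29 (limma, adjusted p = 0.385), with no overlap. Among 10 regulators and partners of NRF2, the medians were -0.056 between the vectors and 0.039 and -0.028 against PBS for HDAd-0 and HDAd-gE3. The genes with the smallest unadjusted p there were Rbx1, a subunit of the KEAP1 ubiquitin ligase (0.27 ± 0.11 in HDAd-0 against PBS, on a dim probe set), and the small MAF gene Mafg (-0.19 ± 0.095 in HDAd-gE3 against PBS), with limma adjusted p of 0.379 and 0.515.

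In the glutathione list (22 measured) the medians were 0.033 between the vectors and -0.012 and -0.0007 against PBS for HDAd-0 and HDAd-gE3. Gpx7, a peroxidase of the endoplasmic reticulum, read 11.15, 11.25 and 11.24 with HDAd-gE3, 11.13, 11.13 and 11.16 with HDAd-0, and 10.94, 10.91 and 10.98 with PBS. It showed the split of Txnrd1, both vector groups above PBS (0.27 ± 0.06 and 0.20 ± 0.06; limma, adjusted p = 0.191 and 0.269). Gsto1, an omega-class glutathione transferase, averaged 11.10 with HDAd-gE3, below 11.34 with HDAd-0 and 11.35 with PBS (-0.24 ± 0.063 and -0.25 ± 0.063; adjusted p = 0.239 and 0.231). Of 13 thioredoxin and peroxiredoxin genes, Txnip, an inhibitor of thioredoxin, averaged 12.86 and 12.85 with the vectors and 12.69 with PBS, with no overlap. Txnrd3, a related reductase, averaged 9.20 (HDAd-gE3), 9.44 (HDAd-0) and 9.25 (PBS).

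Catalase (Cat) read above PBS on all vector arrays, at 12.40, 12.48 and 12.30 in the order HDAd-gE3, HDAd-0, PBS, and the lactonase gene Pon2 averaged 10.67, 10.80 and 10.64. Of the 6 measured NADPH-supplying genes, Pgd of the pentose phosphate pathway averaged 12.33, 12.43 and 12.51 and malic enzyme Me1 11.51, 11.48 and 11.63. Both lay below PBS on all vector arrays. The list median was -0.084 in HDAd-gE3 against PBS.

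Among haem and iron genes, Hpx, which encodes the plasma protein haemopexin made in liver, averaged 6.86 (HDAd-gE3), 8.27 (HDAd-0) and 6.99 (PBS), where the hepatocyte list averaged 9.12, 9.84 and 8.79. Fech, the last enzyme of haem synthesis, averaged 12.48, 12.18 and 11.98, the order of the erythroid markers given above. Among 11 sources of reactive oxygen, 10 had a higher mean with HDAd-0 than with PBS (median 0.12), as had 52.9% of all probe sets. With HDAd-gE3, 1 had a higher mean than with HDAd-0 and 10 a lower one (median -0.075), where 45.4% of all probe sets were higher, and both comparisons share the HDAd-0 arrays. Nos3, the endothelial nitric oxide synthase, averaged 9.24, 9.48 and 9.11 (0.37 ± 0.066 for HDAd-0 against PBS; limma, adjusted p = 0.143), and endothelial markers were also highest with HDAd-0. Myeloperoxidase (Mpo) read 6.47, 6.22 and 9.69 with HDAd-gE3, against 4.58 to 5.65 on the other arrays. The array at 9.69 was HDAd-gE3 replicate 4, the highest in neutrophil markers. The neutrophil list mean was also higher on every HDAd-gE3 array than on any array of the other groups. The part of these cells in the values was not tested.

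**Figure D5:**
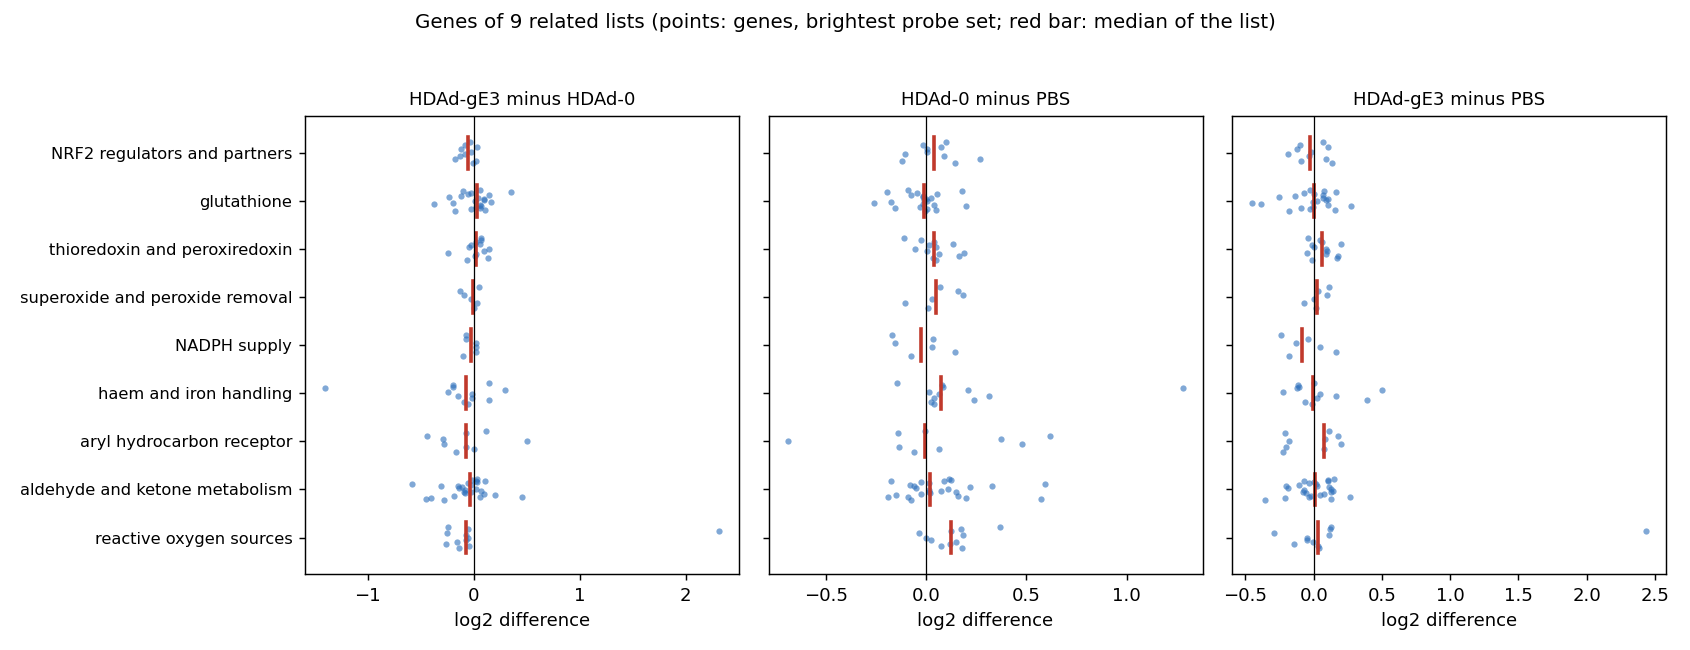
Log2 difference (horizontal axis, a separate range for each panel) of the 115 measured genes of 9 related lists (rows) in the 3 comparisons (panels); points are genes and red bars list medians. List medians lie between -0.084 and 0.12, and the far points are Mpo, at 2.32 and 2.44 for HDAd-gE3, and Hpx, at -1.40 and 1.28.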

How the data were processed

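The authors deposited log2 signals for 45101 probe sets on 9 arrays, and RMA is the tool that the submitters' processing notes name (version not given in the sources used here). RMA corrects background, quantile normalizes and summarises by median polish. A shift common to most genes is removed by it, and 38.3% of probe sets hold the same value on 2 or more arrays. Genes came from the platform annotation, of which 34945 probe sets have 1 gene, 932 have several and 9160 have none; 64 control probe sets were left out. Linear models over all 9 arrays and 45037 probe sets were fitted in limma 3.58.1 under R 4.3.3 (lmFit, eBayes), leaving 6 residual degrees of freedom, with Benjamini-Hochberg adjustment and 0.05 as the threshold. With 3 arrays against 3, the smallest two-sided p of an exact permutation test is 0.1. The fit was tested on simulated data. Related genes, cell markers and list members were read on the brightest probe set of each gene. From each list the text names genes that passed or, with none, the 2 with the smallest unadjusted p in any comparison. Cyp1a1 is named beside these. Members and lists were chosen with earlier results of these data known, so no p was adjusted over a list. The 12 list genes without a probe set of 1 gene are not analysed here. Alternatives were another scaling, a filter on dim probe sets, other ways to pick a gene's probe set, array weights, a replicate block, a variance trend with intensity, only the 2 groups compared, an RNA quality covariate, a looser threshold and leaving out arrays. The fit without both HDAd-gE3 replicate 4 and HDAd-0 replicate 5 was added after seeing the data. Figures were drawn with matplotlib 3.10.9.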

Additional observations from a re-analysis of the deposited data

How the results depend on the processing

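The count of 0 member probe sets past the threshold held under all alternatives except 2 (limma). With array weights 1 passed in HDAd-gE3 against PBS, Txnrd1 set 2. When single arrays were left out, the count in HDAd-gE3 against HDAd-0 was 0 to 1, and the 1 was Aldh3a1 without HDAd-0 replicate 4, which is no test of that gene because its difference was known when it was chosen. The smallest adjusted p of a member over all alternatives was 0.0829 to 0.479 in HDAd-0 against PBS and 0.0378 to 0.488 in HDAd-gE3 against PBS. Calls over all features moved far more. They were 0, 4 and 1 in these comparisons and ran over the alternatives from 0 to 402, 0 to 542 and 0 to 279, with 402 and 542 reached without HDAd-0 replicate 4 and 279 with array weights. Same-numbered arrays shared little (correlations of their deviations 0.011 to 0.128), so the numbers were not taken as pairs. Only the numbers 3 and 4 recur over the groups, so the replicate block fit compares those arrays alone. With it 0 members passed in each comparison, but with so few arrays this adds little. The upper ends of 0.479 and 0.488 come from that fit. Of 30 differences of the brightest probe sets, 14 kept their sign under every alternative. All 3 of Aldh3a1 did, and HDAd-gE3 against HDAd-0 ran from -0.67 (3' minus 5' covariate) to -0.42 (replicate block). In the same comparison that covariate turned Hmox1 from 0.029 to -0.30 and Gclm from 0.088 to -0.096. Of 570 recomputed differences 17 moved by more than 1 SD. The mean of a gene's probe sets gave 0.38 for Txnrd1 in both comparisons with PBS, against 0.064 and 0.046 on its brightest, and turned Gclc in HDAd-gE3 against PBS from -0.054 to 0.16. Of 27 list medians, 11 kept their sign under every alternative.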
